A study of Mus musculus with 12 samples.

Results

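Described here are 10 genes of the AP-1 and immediate early group, namely Fos, Fosb, Fosl1 and Fosl2 of the Fos family, Jun, Junb and Jund of the Jun family, and Egr1, Atf3 and Ier2. They were chosen by name, through the Ensembl identifier of each symbol, from a table of 55573 genes, and all 10 were among the 19174 genes that passed the filter on low counts. The RNA came from mouse embryonic fibroblasts (MEFs), cells of connective tissue that were taken from day 13.5 embryos of strain C57BL/6 (the i4F-B mouse line) whose genome holds a cassette that doxycycline switches on and that encodes Oct4, Sox2, Klf4 and Myc (OSKM), the factors that can turn fibroblasts pluripotent. Cells of 3 embryos, called clones 1, 2 and 3, were each split over 4 groups and harvested 72 h after transfer to the medium used for induced pluripotent stem cells. MEF cells received no additive, MEF+B12 cells received 2 µM vitamin B12, OSKM cells received 1 µg/ml doxycycline, and OSKM+B12 cells received both. All 12 libraries thus share the cassette and the medium, each group has 3 libraries, and each clone is a single embryo. Because uninduced cells never received doxycycline, the drug and the factors cannot be told apart. Titles of clone 1 libraries bear a later year than those of clones 2 and 3, so the year and clone 1 cannot be told apart either.

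AP-1 is a dimer of leucine zipper proteins, usually one Fos and one Jun protein or a pair of Jun proteins, which binds DNA at the sequence TGACTCA. Immediate early genes are transcribed within minutes of a growth factor or stress signal, without new protein synthesis, because kinases activate factors such as SRF, its ternary complex partners and CREB that already sit at their promoters. Their transcripts are short-lived, and the response is shut off by phosphatases and Sprouty proteins that the same signal induces. In fibroblasts AP-1 takes part in keeping fibroblast enhancers active and drives genes of matrix breakdown. Fos proteins cannot pair with each other, whereas Jun proteins can.

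The stretches before the transcription start of Jun, Fos and Junb are printed because Jun passed the test on induction, Fos was among the genes that stood most apart between clones, and Junb was the member most like Fos across libraries. Promoters of 7 of the 10 genes were matched in a RefSeq table of build GRCm38.p6. Fosl1 and Ier2 were not matched, and Egr1 was left out of the search beforehand. The lines give the 250 bases before the start, 5′ to 3′ on the strand of the gene, at chr4:95052223-95052472 (minus strand) for Jun, chr12:85473640-85473889 (plus strand) for Fos and chr8:84978749-84978998 (minus strand) for Junb. Capitals mark matches to TGACG or to TGACNTCA on either strand.
Jun: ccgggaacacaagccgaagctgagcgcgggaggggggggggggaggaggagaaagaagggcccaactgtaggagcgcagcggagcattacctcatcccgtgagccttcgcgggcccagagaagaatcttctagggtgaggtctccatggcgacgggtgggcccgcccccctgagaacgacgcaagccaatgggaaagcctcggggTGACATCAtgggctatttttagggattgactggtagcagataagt
Fos: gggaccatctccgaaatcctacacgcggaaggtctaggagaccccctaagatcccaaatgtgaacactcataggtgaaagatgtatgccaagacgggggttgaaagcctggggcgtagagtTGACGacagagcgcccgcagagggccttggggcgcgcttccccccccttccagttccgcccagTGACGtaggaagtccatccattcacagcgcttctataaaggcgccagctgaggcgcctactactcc
Junb: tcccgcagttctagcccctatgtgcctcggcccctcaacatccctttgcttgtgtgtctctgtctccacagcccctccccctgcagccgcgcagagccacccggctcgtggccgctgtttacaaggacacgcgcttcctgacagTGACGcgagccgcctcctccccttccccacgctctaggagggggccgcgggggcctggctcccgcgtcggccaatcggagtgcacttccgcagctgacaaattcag
Searched on both strands, 0 of the 7 windows held the AP-1 site TGACTCA, which 4.46% of all 32851 promoters of the table held in the same 250 bases. The same was found for the CRE, TGACGTCA, the site of CREB and ATF proteins, at 1.55% of all promoters, and for the CArG box, the site of SRF, at 1.47%. The looser forms were searched after these 3. The form TGACNTCA, which contains the CRE, was held by 7.49% of all promoters and by Jun alone among the 7, where it read TGACATCA 45 bases before the start. The shorter core TGACG, which overlaps the CRE, was held by 17.8% of all promoters and by 4 of the 7. It began 129 and 66 bases before the start of Fos, 106 bases before that of Junb and 60 bases before that of Fosb, and lay in the last 7 bases before that of Atf3. The windows of Fosl2, which also passed the test on induction, and of Jund held none of these forms and are not printed. The RefSeq start need not be that of the gene as annotated in GENCODE. The window of Jund ended upstream of the annotated gene, at position 70697738 of chromosome 8, where the gene starts at 70698949. The windows of Fosl2 and Atf3 lay inside the annotated genes and that of Fosb overlapped its start. No match says only that these letters are not in this window.

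The 12 libraries held 56971244 to 79236795 counted read pairs. The biological coefficient of variation after the clone and group terms was 8.04%. Fibroblast markers were high in every library, with 10 genes summing to 91070 to 144100 CPM (counts relative to the library total, which was scaled by TMM factors). Markers of macrophages were also present, with 12 genes summing to 1335 to 3395 CPM and none at 0 in a whole group. In such bulk samples, fewer cells of a type and less RNA per cell cannot be told apart. Among the factors of the cassette, the counts rose with induction by 5.96 for Pou5f1 (Oct4), 4.22 for Sox2 and 0.88 for Myc on the log2 scale, and Klf4 fell by 0.12. The counts do not separate the cassette from the endogenous genes.

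The 10 genes spanned a wide range of levels. Between genes only CPM per kilobase of exon (per kb) can be compared, and on this scale the mean over 12 libraries was 87.5 ± 7.47 (SD) for Jund, 54.0 ± 4.93 for Jun and 39.9 ± 5.56 for Junb. The Jun family thus had the 3 highest means. Ier2 followed at 17.8 ± 6.41, Egr1 at 15.8 ± 10.3, Fosl2 at 12.04 ± 1.63 and Fos at 8.74 ± 4.26 CPM per kb. Atf3 had 3.16 ± 0.557, Fosl1 0.632 ± 0.137 and Fosb 0.169 ± 0.051 CPM per kb. Jund lay above Jun in 12 of 12 libraries without overlap of their ranges, and Jun above Junb in 11 of 12. The levels of Ier2, Egr1, Fosl2 and Fos overlapped, each exceeding the next in only 4 to 8 of 12 libraries. From Fos downward, each gene lay above the next in all 12 libraries with no overlap. On GRCm38, Fos lies at chr12:85473890-85477273 (plus strand), Fosb at chr7:19302696-19310051 (minus), Fosl1 at chr19:5447547-5455946 (plus) and Atf3 at chr1:191170296-191218039 (minus). Junb lies at chr8:84974484-84978718 (minus), Jund at chr8:70698949-70700616 (plus) and Ier2 at chr8:84661331-84662852 (minus), each counted over its exons, untranslated parts included. Exons of Fosl1, Jun, Junb and Jund overlap those of a gene on the opposite strand, and the counting used strand.

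**Figure D1:**
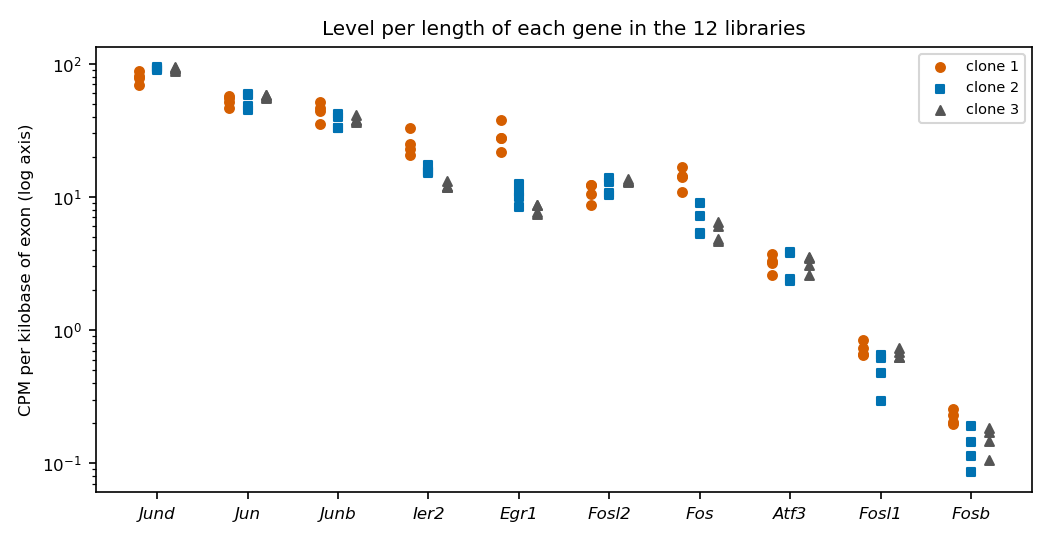
Level of each gene in the 12 libraries in CPM per kilobase of exon on a log axis, ordered by mean, with 1 point per library and the clone given by colour and shape. Jund, Jun and Junb lead, Ier2, Egr1, Fosl2 and Fos overlap, and clone 1 lies highest for Egr1, Fos, Fosb and Ier2.

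Within the Fos family, Fosl2 (Fra-2, a Fos protein without the strong activation domains of Fos) made up 57.5% ± 11.9 (SD, n = 12) of the summed level per kb, and Fos 38.8% ± 12.03. Fosl1 (Fra-1) contributed 2.96% ± 0.638 and Fosb 0.795% ± 0.231. The split between Fosl2 and Fos moved between libraries, with Fos at 24.9% to 59.5% of the family. The Jun family was steadier, with Jund, the member least dependent on stimulation, at 48.3% ± 3.19, Jun at 29.7% ± 1.43 and Junb at 21.98% ± 2.72. Fosb and Fosl1 were counted 31 to 109 and 37 to 115 times per library, so their values are the least precise of the 10.

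**Figure D2:**
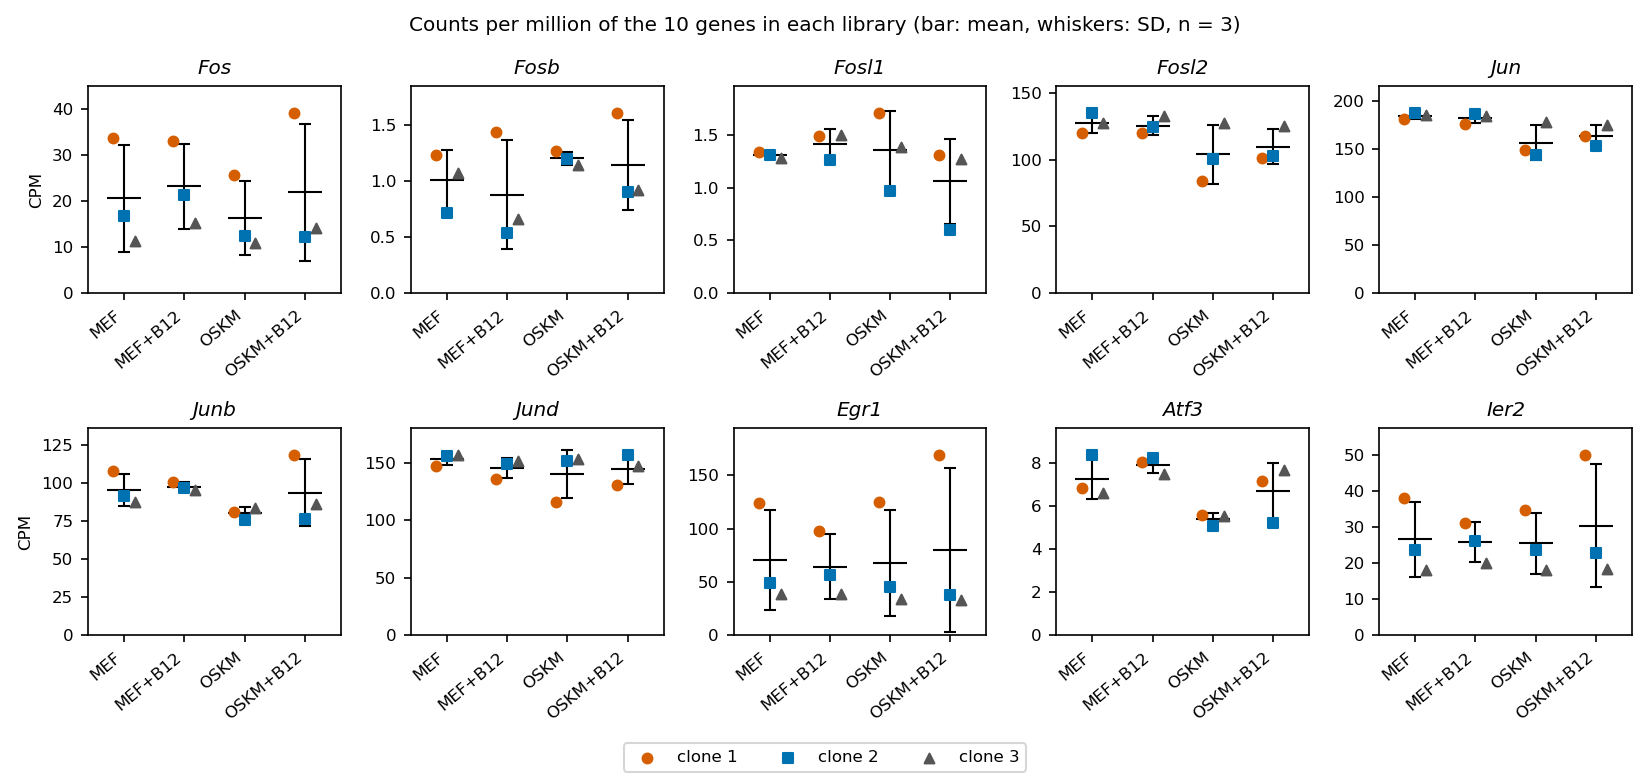
CPM of each gene in each of the 12 libraries by group, each panel with its own axis from 0, with clones as colours and shapes, the bar at the mean and whiskers at 1 SD (n = 3). Jun and Fosl2 are lower in OSKM than in MEF in each clone, though Fosl2 is nearly level in clone 3. The orange points of clone 1 stand above the others for Egr1, Fos, Fosb and Ier2.

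The first comparison asked how induction of the factors for 72 h altered these genes. Averaged over both media, 2 of 10 members passed the test, Jun and Fosl2, and both were lower in induced cells. Jun is the founding Jun protein and a driver of fibroblast growth, and Fosl2 had the highest mean level per kb of the Fos family here. Over all genes tested, 9.73% passed this test, with 4.46% higher and 5.26% lower. A share of 10 genes moves in steps of 1 gene, and 2 of 10 was not read as different from this background. The median log2 fold change of the 10 was -0.18, beside -0.0028 over all genes tested, and 2 of 10 were positive. An unadjusted p under 0.05 was found in edgeR for 5 of 10 members and 26.8% of all genes.

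Jun (ENSMUSG00000052684, GRCm38 chr4:95049034-95052222, minus strand, a single exon) had, for clones 1, 2 and 3 in this order, 181, 188 and 186 CPM in MEF, and 177, 187 and 185 CPM in MEF+B12. In OSKM it had 149, 144 and 178 CPM, and in OSKM+B12 164, 154 and 175 CPM. The OSKM libraries lay below every MEF library without B12, and the OSKM+B12 libraries below every MEF+B12 library. The averaged log2 fold change was -0.20 ± 0.045 (SE, edgeR adjusted p = 0.0270), a level of 0.871 times that in uninduced cells with a 95% interval of 0.813 to 0.933. The difference was -0.20 in clone 1, -0.33 in clone 2 and -0.069 in clone 3.

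Fosl2 (ENSMUSG00000029135, chr5:32135801-32157842, plus strand, 4 exon blocks) had 119.5, 135 and 128 CPM in MEF and 119.5, 124 and 133 CPM in MEF+B12. In OSKM it had 83.6, 101 and 128 CPM, and in OSKM+B12 101, 103 and 125 CPM. Clone 3 kept its level in OSKM near that in MEF, so the groups overlapped. The averaged log2 fold change was -0.26 ± 0.062 (edgeR adjusted p = 0.0318), or 0.838 times with an interval of 0.763 to 0.921. It was -0.38 in clone 1, -0.35 in clone 2 and -0.045 in clone 3. Jun and Fosl2 were the members lower in induced cells in 6 of 6 pairs of libraries matched by clone and medium, a pattern that 8.26% of all genes tested showed. For Fosl2 the pair of clone 3 without B12 was nearly level, at a log2 difference of -0.0017.

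These calls, like most of those over all genes, rested on clones 1 and 2. Without clone 1, without clone 2 or without the OSKM library of clone 1 alone, 0 members passed, and in the last case the edgeR adjusted p was 0.0541 for Jun and 0.0570 for Fosl2. Without clone 3, 3 members passed, Jun, Fosl2 and Atf3. Over all genes 1865 passed in the reported fit and 3056 without clone 3. Without clone 1 it was 10, without clone 2 it was 3, and without the OSKM library of clone 1 it was 771. Without the clone term in the model, 0 members and 0 of all genes passed.

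Atf3, a stress-induced factor that mostly acts as a repressor, had 6.84, 8.35 and 6.58 CPM in MEF, and 8.01, 8.20 and 7.49 in MEF+B12. Its OSKM libraries had 5.59, 5.07 and 5.53 CPM, and those of OSKM+B12 7.15, 5.19 and 7.65 CPM. Without B12 its OSKM libraries all lay below the MEF libraries, while with B12 the groups overlapped through clone 3. The averaged difference of -0.34 ± 0.10 did not pass (edgeR adjusted p = 0.0569), with a 95% interval of -0.56 to -0.12. It passed with DESeq2, without the filter on low counts and without clone 3.

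Fosb, a Fos protein with a strong activation domain, had the largest positive difference. It was counted at 1.23, 0.711 and 1.07 CPM in MEF, and 1.43, 0.534 and 0.662 in MEF+B12. Its OSKM libraries had 1.26, 1.19 and 1.14 CPM, and those of OSKM+B12 1.60, 0.901 and 0.921 CPM. Induced cells were higher in 6 of 6 pairs, as were those of 7.34% of all genes tested, yet the groups overlapped. The averaged log2 difference was 0.34 ± 0.17 (edgeR adjusted p = 0.223). Its deviations from the clone means ran against those of Fos, Jun and Atf3, with Pearson r of -0.67, -0.62 and -0.66 over 12 libraries.

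For the other 6 members, none passed. Fos had an averaged difference of -0.24 ± 0.11 (edgeR adjusted p = 0.175) and Junb, a Jun protein that often opposes Jun in growth control, of -0.16 ± 0.069 (adjusted p = 0.167). Jund, at 116 to 157 CPM in the 12 libraries, had -0.072 ± 0.044, with an interval of -0.17 to 0.025. Fosl1, a Fos protein of invasive and stimulated cells, had -0.21 ± 0.15 with an interval of -0.54 to 0.12. The intervals were -0.33 to 0.25 for Egr1, a zinc finger factor of the growth factor response, and -0.16 to 0.25 for Ier2, a short nuclear protein of the early response. The direction of the averaged Egr1 difference turned positive under some other settings.

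Each medium on its own gave fewer calls. Without B12, 0 of 10 members and 0.073% of all genes passed in edgeR, 4 members and 18.99% of all genes had an unadjusted p under 0.05, and DESeq2 called 2, Jun and Fosl2. With B12, 0 of 10 members and 0.104% of all genes passed, 2 members and 14.9% of all genes had an unadjusted p under 0.05, and DESeq2 called 0. Jun differed by -0.24 ± 0.064 without B12 and -0.16 ± 0.063 with it, and Fosl2 by -0.31 ± 0.087 and -0.20 ± 0.087.

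**Figure D3:**
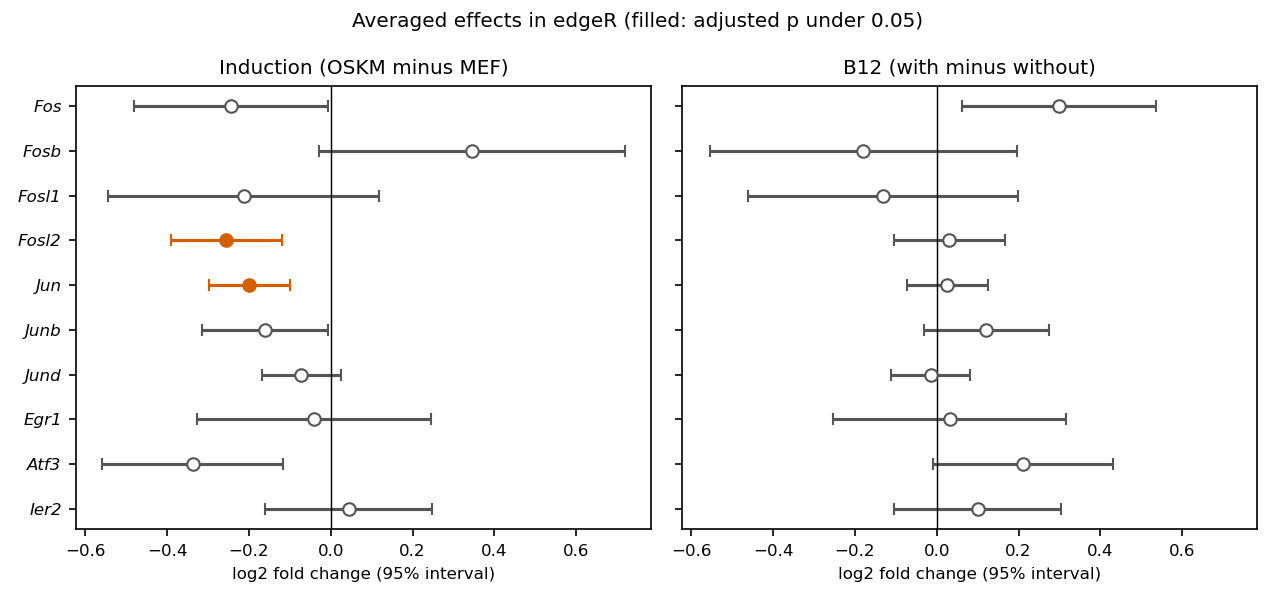
Averaged log2 fold change of each gene with its 95% interval from edgeR, for induction on the left and for B12 on the right, filled orange where the adjusted p over all genes was under 0.05. Jun at -0.20 and Fosl2 at -0.26 are the filled points, and no gene is filled for B12.

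The second comparison asked whether B12 altered these genes. No member passed the test in either state or on average. In OSKM cells 0 of 10 members passed beside 1.06% of all genes, with 1 member and 9.82% of all genes at an unadjusted p under 0.05. In MEF cells it was 0 of 10 beside 1.38%, with 0 members and 10.3% of all genes at an unadjusted p under 0.05. Averaged over both states it was 0 of 10 beside 3.84%, with 1 member and 15.5% of all genes at an unadjusted p under 0.05. DESeq2 also called 0 members in each of these comparisons.

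Fos, the prototype of the family, had the largest averaged B12 difference. It had 33.8, 16.8 and 11.3 CPM in MEF and 33.2, 21.3 and 15.2 CPM in MEF+B12. It had 25.7, 12.5 and 10.97 CPM in OSKM and 39.2, 12.3 and 14.3 CPM in OSKM+B12. The groups overlapped widely. The averaged log2 difference was 0.30 ± 0.11 (edgeR adjusted p = 0.195), higher with B12 in 4 of 6 pairs.

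Junb had 107.6, 91.3 and 87.6 CPM in MEF and 101, 96.8 and 95.1 CPM in MEF+B12. In OSKM it had 81.1, 75.8 and 83.8 CPM, and in OSKM+B12 118, 76.2 and 86.4 CPM, where clone 1 stood above the others. Its averaged B12 difference was 0.12 with an interval of -0.032 to 0.27. For Jun the interval was -0.073 to 0.12, for Fosl2 -0.10 to 0.17 and for Jund -0.11 to 0.083. The intervals were wider for Egr1 (-0.25 to 0.32), Atf3 (-0.0087 to 0.43), Ier2 (-0.10 to 0.30), Fosb (-0.55 to 0.20) and Fosl1 (-0.46 to 0.20). No member moved the same way with B12 in 6 of 6 pairs, a pattern that 15.6% of all genes showed in one direction or the other.

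The interaction, which subtracts the B12 difference of uninduced cells from that of induced cells, passed for 0 of 10 members and 0% of all genes in edgeR. 0 members and 1.42% of all genes had an unadjusted p under 0.05, and DESeq2 called 0 members. The most extreme interval was that of Fosl1, at -1.12 to 0.20.

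For Egr1, Fos and Ier2, and also for Fosb, Fosl1 and Jund, the clone means stood further apart than the group means. Egr1 had 124, 48.9 and 38.7 CPM in MEF, again in clone order, and 98.1, 56.1 and 39.1 in MEF+B12. It had 125, 44.9 and 34.4 CPM in OSKM and 169, 37.7 and 33.3 in OSKM+B12. Every library of clone 1 lay above every library of clones 2 and 3. The mean was 129 CPM in clone 1 against 41.6 CPM in clones 2 and 3, a ratio of 3.10.

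Fos showed the same order, with 25.7 to 39.2 CPM in clone 1 and 10.97 to 21.3 in the 8 other libraries, a ratio of means of 2.30. Ier2 had 38.1, 31.2, 34.7 and 49.97 CPM across the 4 clone 1 libraries and 17.98 to 26.2 in the others, a ratio of 1.80. Fosb had 1.23 to 1.60 CPM against 0.534 to 1.19, a ratio of 1.55. Jund ran the other way, at 116 to 147.5 CPM in clone 1 and 147.6 to 157 in the others, a ratio of 0.866. Thus 4 of 10 members lay wholly above in clone 1 and 1 wholly below, beside 7.98% and 8.88% of all genes tested. A clone is 1 embryo, and clone 1 also has its own title year, so this is a description without a test. Jun, at a ratio of 0.961, and Atf3, at 1.02, overlapped between clones.

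Differences between clones in the induction response were tested with the 2 clone by state terms. The averaged differences of clones 1, 2 and 3 were 0.40, -0.35 and -0.20 for Egr1, 0.27, -0.10 and -0.058 for Ier2, and -0.078, -0.61 and -0.067 for Fos. They were -0.23, -0.69 and -0.11 for Atf3 and 0.083, -0.73 and -0.058 for Fosl1. In absolute size, clone 3 had the smallest difference for Jun, Fosl2, Atf3, Fos, Fosl1, Egr1 and Ier2, but not for Fosb, Junb and Jund. In edgeR 0 of 10 members passed beside 2.15% of all genes, 6 members and 14.8% of all genes had an unadjusted p under 0.05, and the smallest adjusted p was 0.192, for Jun. Without the filter on low counts 4 members passed, namely Fos, Fosl2, Egr1 and Atf3. Without the OSKM library of clone 1, Junb and Egr1 passed. Calls over all genes rose too, from 413 in the reported fit to 1257 without the filter and 838 without that library.

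**Figure D4:**
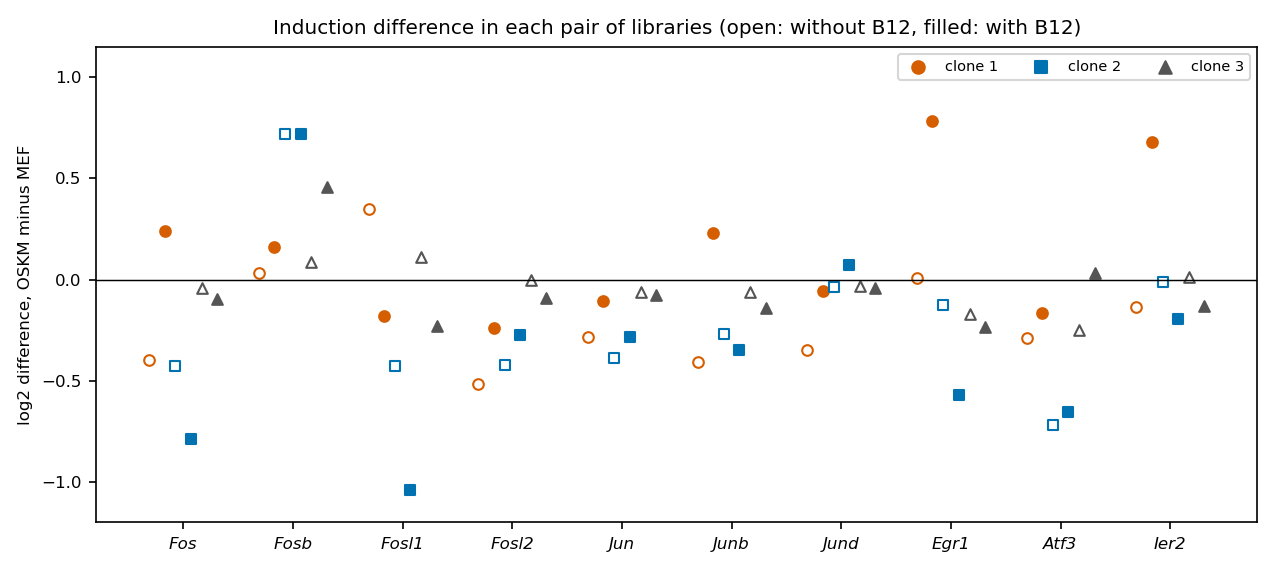
Log2 difference, OSKM minus MEF, for each gene in each pair of libraries of the same clone and medium, open without B12 and filled with B12, with clones as colours and shapes. All 6 points of Jun and Fosl2 lie below 0, the open point of clone 3 for Fosl2 only just, at -0.0017. All 6 of Fosb lie above 0, and for Egr1 and Ier2 the filled point of clone 1 lies far above the rest.

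Clone accounted for much of the spread of Egr1, Fos and Ier2. The SD of log2 CPM about the group means was 0.988 for Egr1, 0.745 for Fos and 0.546 for Ier2, and 0.292, 0.241 and 0.202 once the clone means were also removed. For Atf3 the values were 0.182 and 0.206. With clone means removed, Jun at 0.084 and Jund at 0.082 had the smallest values among the members. The median also fell, from 0.186 to 0.118 over all genes tested and from 0.118 to 0.076 over genes with a mean log2 CPM of at least 3. The clone 1 library with doxycycline and B12 was the highest of the 12 for Egr1, Fos, Fosb, Ier2 and Junb. With clone means removed, the log2 CPM of Egr1 was most like that of Ier2 among members (Pearson r = 0.87 over 12 libraries), Fos most like Junb (0.89), Jun most like Fosl2 (0.93) and Atf3 most like Fos (0.87). Among 9561 coding genes of at least 3 mean log2 CPM, the most similar pattern was that of Ltbr for Fosl2 (0.99), Arsi for Jun (0.98), Fam171a2 for Jund (0.98) and Cebpb for Atf3 (0.96). For the rest it was Ch25h for Fos (0.93), Mapkbp1 for Fosb (0.93), Zfp36 for Junb (0.93), Pde12 for both Ier2 (0.93) and Egr1 (0.90), and Skp1a for Fosl1 (0.90). These values describe 12 libraries that share 3 clones and 4 groups.

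The other genes of the pathway were followed in lists. Of 24 further immediate early genes, 23 were tested, and with induction 11 fell and 2 rose, where 5.26% of all genes tested were called lower and 4.46% higher. The median log2 fold change was -0.21, beside -0.0028 over all genes tested. Those that fell included Phlda1, a survival and differentiation gene, by 0.39, Rhob, a small GTPase of endosomes and actin, by 0.38, and the secreted matricellular proteins Ccn1 and Ccn2 by 0.37 and 0.32. Ier5, Ier3, Sgk1, Ier5l, Btg2, Klf6 and Gadd45b fell by 0.21 to 0.32. Klf10, a TGF-beta induced factor, rose by 0.28 ± 0.048 and the orphan nuclear receptor Nr4a2 by 0.26 ± 0.071 (edgeR adjusted p = 0.0172 and 0.0476). Phlda1 had 14.3 to 16.6 CPM in MEF and 9.80 to 14.6 in OSKM, and its clone 3 difference was -0.13 against -0.50 and -0.57 in clones 1 and 2.

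Among 10 feedback inhibitors, 5 fell with induction, beside the same 5.26% called lower over all genes, and the median was -0.22. The dual-specificity phosphatases Dusp4, Dusp5 and Dusp6, which remove phosphate from MAP kinases, fell by 0.62, 0.29 and 0.28, and the Sprouty inhibitors Spry1 and Spry2 by 0.23 and 0.21. Dusp4 had 9.68, 10.8 and 9.46 CPM in MEF and 4.90, 5.86 and 8.40 in OSKM, so every OSKM library lay below every MEF library. Dusp1, the phosphatase induced most rapidly by stress, had a difference of -0.11 ± 0.094 that did not pass.

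Of 18 known AP-1 targets, 17 were tested, and 7 fell and 1 rose with induction, beside 5.26% lower and 4.46% higher over all genes, with a median of -0.19. The metalloproteinase genes Mmp9, Mmp3, Mmp10 and Mmp13, whose products cut matrix proteins, fell by 1.45, 0.72, 0.56 and 0.22. Plau, which encodes urokinase, fell by 0.45, and the metalloproteinase inhibitor Timp1 by 0.18. Vegfa, the endothelial growth factor, rose by 0.42 ± 0.11 (edgeR adjusted p = 0.0377). Mmp3 had 405, 899 and 476 CPM in MEF and 201, 411 and 439.9 CPM when induced without B12, so clone 3 was lower by a small margin only. Fibroblast markers moved beside these lists, since 4 of 10 fell, Col1a1, Col1a2, Pdgfra and Pdgfrb, by 0.26 to 0.35. The fibroblast list had a median of -0.20, and 3 of 10 were positive. The summed fibroblast markers were 120300 to 144100 CPM in MEF and 91070 to 118400 in OSKM. Of the 7 endothelial markers 3 were tested, and Tek and Cdh5 rose, with a list median of 1.22 and a sum of 41.9 to 46.6 CPM in MEF and 53.1 to 145 in OSKM. Adgre1 and Csf1r of the 12 macrophage markers fell, by 0.27 and 0.31, with a sum of 1335 to 2564 CPM in MEF and 1372 to 2358 in OSKM. The macrophage list had a median of -0.17, and 3 of 12 were positive. Tubb3 of the 5 neural markers fell by 0.42, with a sum of 24.2 to 41.1 CPM in MEF and 20.3 to 32.6 in OSKM. The neural list had a median of -0.031, and 2 of 5 were positive. Of 5 muscle markers 2 were tested and 0 passed in edgeR, with 1 at an unadjusted p under 0.05. The part of any of these cells in the results was not tested.

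None of the 12 other dimer partners, of the 17 upstream kinases and SRF partners or of the 8 heat shock genes passed for induction in edgeR, with 4, 4 and 2 at an unadjusted p under 0.05, as 26.8% of all genes were. Their medians were -0.066, -0.023 and -0.017. DESeq2 called 1, 3 and 0 of them. Without clone 1, without clone 2 or without the clone term, 0 genes passed in any of these 6 lists, beside 10, 3 and 0 over all genes. Without the OSKM library of clone 1 alone, 5 immediate early genes, 2 feedback inhibitors and 2 AP-1 targets were still lower and past the threshold, and with library totals in place of TMM factors 7, 2 and 5.

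**Figure D5:**
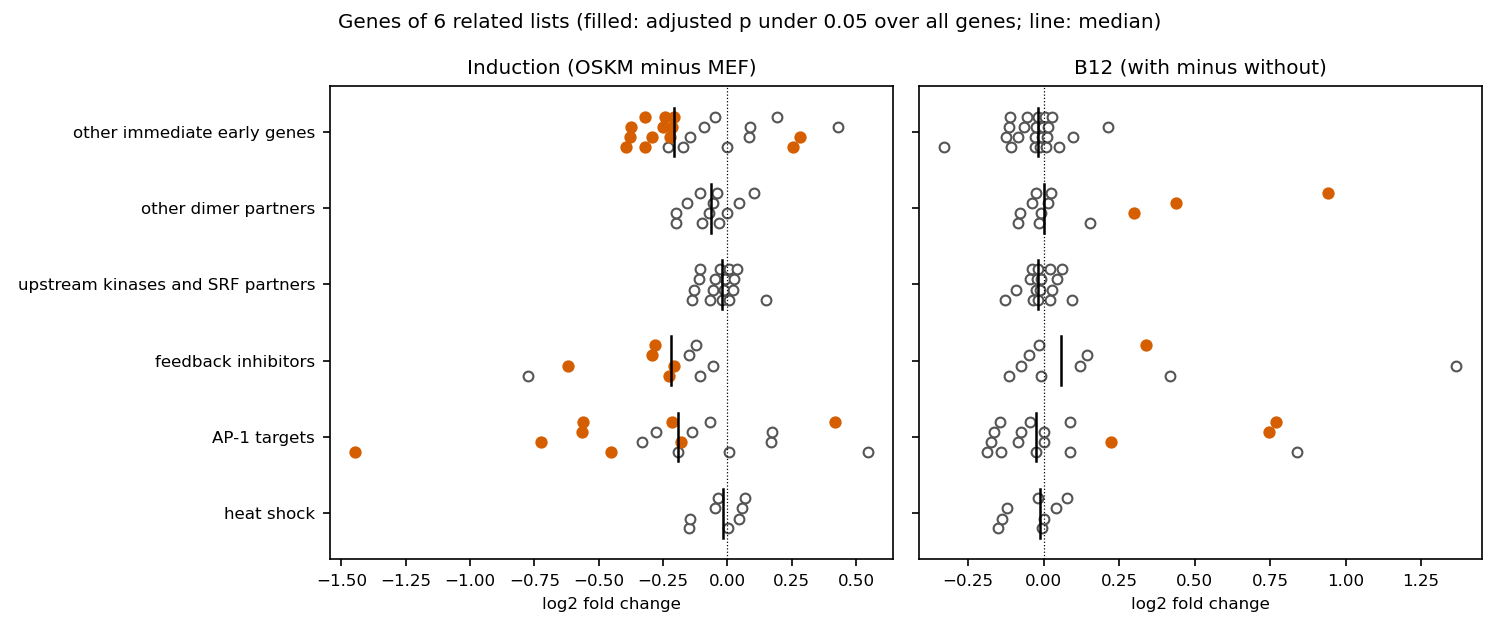
Log2 fold change of the tested genes of 6 related lists, for induction averaged over media on the left and B12 averaged over states on the right, filled orange where the adjusted p over all genes was under 0.05, with a line at each list's median. Filled points of the immediate early, feedback and target lists lie mostly below 0 for induction, and the filled points for B12 lie above 0.

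The clone by state terms passed for 3 of 23 immediate early genes, 1 of 10 feedback inhibitors and 6 of 17 AP-1 targets tested, beside 2.15% of all genes, and for none of the 10 members. They included Ccn1, Rhob and Sgk1 among immediate early genes, Dusp4 among feedback inhibitors, and Mmp3, Mmp9, Mmp10, Vegfa and Ccnd1 among AP-1 targets. Mmp9 differed by -2.60, -1.71 and -0.12 in clones 1, 2 and 3, and Mmp3 by -1.02, -1.05 and -0.099. Among the cassette factors Sox2 passed as well, at 4.35, 4.99 and 2.45, and Myc, at 1.18, 1.32 and 0.11. That these genes passed and the members did not is no test of a difference between them.

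With B12 averaged over states, 0 of 23 other immediate early genes passed in edgeR and 1 in DESeq2, with 2 at an unadjusted p under 0.05. Of the 6 lists, 3 held calls, with 3 of 12 dimer partners, 1 of 10 feedback inhibitors and 3 of 17 AP-1 targets higher. Over all genes 3.84% passed, 663 of them higher and 73 lower. Among the dimer partners, Batf2, Batf and Maf, leucine zipper factors prominent in immune cells, rose by 0.94, 0.44 and 0.30. Among feedback inhibitors Dusp6 rose by 0.34 ± 0.055 (edgeR adjusted p = 0.0048). Among AP-1 targets Plau rose by 0.77, the heme oxygenase Hmox1 by 0.75 and the urokinase receptor Plaur by 0.22. Dusp2, at group means of 0.0629 to 0.272 CPM, had a difference of 1.37 ± 0.37 that did not pass. The counts of 3, 1 and 3 became 0, 0 and 1 without the clone term or without clone 2, 1, 2 and 2 without clone 3, 2, 2 and 3 with DESeq2, and 3, 2 and 4 without the filter on low counts. With library totals they were 3, 2 and 3, and without clone 1 they were 1, 1 and 3. Batf2 was near the limit of detection, at group means of 0.184 to 0.499 CPM. Beside them, 11 of 12 macrophage markers rose with B12, with a median of 0.57, and their sum was 1335 to 2564 CPM in MEF and 2013 to 3395 CPM in MEF+B12. The remaining one, Cx3cr1, had a difference of -0.45 ± 0.20. The part of such cells in the B12 results was not tested.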

How the data were processed

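RNA was measured in 12 libraries, 3 clones in each of 4 groups. The authors made strand-specific poly(A) libraries, aligned read pairs to mm10 (GRCm38) with STAR (version 2.5.2 per the submitters' processing notes) and ran featureCounts, set to the reverse strand, on Ensembl annotation. Deposited values are unnormalized counts of pairs per gene, with flow cells of a library added together, and 0 library pairs held identical counts. Genes were named and placed with GENCODE M21 on GRCm38, which matched 55480 of 55573 identifiers. The labels give the doxycycline dose as 1 µg/ml, whereas the paper's methods give it in mg/ml.

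From the counts, CPM were computed with TMM-scaled library totals (factors of 0.934 to 1.06), and log2 CPM with a prior count of 2. Tests used the quasi-likelihood F test of edgeR 4.0.16 in R 4.3.3 after filterByExpr, with clone and group as terms over all 12 libraries, Benjamini-Hochberg adjustment over 19174 genes and a threshold of 0.05. "Averaged" effects are the mean of the effects in both media or both states. Clone entered as a block, since every embryo supplied each group with 1 library, so that same-numbered libraries come from the same animal, and libraries of a clone deviated together (correlations of 0.270 to 0.687 in 18 pairs, -0.510 to 0.170 between clones). The clone by state F test had B12 within state as further terms. Residual SDs came from limma 3.58.1. DESeq2 1.42.0, other scalings and filters, a GC and length correction and left-out libraries were alternatives. Scripts were tested on simulated data. The 10 genes and all lists were chosen with earlier results of these data known. Genes of the lists were named if they passed in any comparison, otherwise up to 2 per list by size, and 1 gene of the AP-1 target list is counted but not reported here by name. Counts carry no molecular identifiers, so precision does not cover amplification error.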

Additional observations from a re-analysis of the deposited data

How the results depend on the processing

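The count of members past the threshold depended on the fit in 3 comparisons. For induction averaged over media it was 2 in the reported fit, 0 without the clone block, 3 with DESeq2 or without a filter, and 0 to 3 when a clone or the OSKM library of clone 1 was left out. For induction without B12 it was 0, but 2 with DESeq2 or without a filter, and 0 to 2 with a library or clone left out. For the clone difference it was 0, but 4 without a filter and 0 to 2 with a library or clone left out. It was 0 under every alternative run for induction with B12, for the 3 B12 comparisons and for the interaction. The cause of these shifts was not tested. No difference of a member that changed sign was past the threshold.

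Over all genes, induction averaged over media called 1865, against 0 without the clone block, 10 without clone 1, 3 without clone 2, 3056 without clone 3 and 771 without the OSKM library of clone 1. Induction without B12 called 14 and with B12 20, against 492 and 420 with DESeq2, 681 and 646 without a filter, 2 and 1 with at least 10 counts in every library, 4 and 6 from the compared libraries alone, and 0 and 0 without the block. With a library or clone left out they ranged from 1 to 1322 and from 1 to 1004. B12 averaged over states called 736, against 90 without the block and 34 to 785 with a library or clone left out. B12 in MEF called 264, against 461 with DESeq2, 409 with library totals, 425 without a filter, 845 from the compared libraries alone, 0 without the block and 0 to 334 with a library or clone left out. B12 in OSKM called 204, against 385 with DESeq2, 364 without a filter, 108 from the compared libraries alone, 0 without the block and 0 to 224 with a library or clone left out. The clone difference called 413, against 1257 without a filter and 0 to 838 with a library or clone left out.

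Some differences changed sign in other fits. With library totals the log2 difference became 0.0083 for Ier2 in induction without B12, 0.032 for Jund in induction with B12, 0.0055 for Egr1 in averaged induction, 0.0093, 0.015 and 0.011 for Fosl2, Jun and Egr1 for B12 in MEF, and 0.0098 for Jund for averaged B12. With the GC and length correction it became 0.0096 for Jund in induction with B12, -0.019 for Jund for B12 in OSKM and 0.0070 for Fosl2 for B12 in MEF. Without the clone block it became 0.13 for Egr1 in averaged induction and -0.041 for Ier2 for B12 in MEF, which was -0.0024 from the compared libraries alone. With DESeq2 it became -0.0018 for Egr1 in induction with B12. With a library or clone left out, differences that crossed 0 ranged as follows. For induction without B12 they were those of Fosl1 (-0.16 to 0.25) and Ier2 (-0.074 to 0.0041). For induction with B12 they were those of Egr1 (-0.41 to 0.30), Fos (-0.43 to 0.077), Ier2 (-0.17 to 0.29), Junb (-0.25 to 0.053) and Jund (-0.047 to 0.013). For averaged induction they were those of Egr1 (-0.28 to 0.11), Fosl1 (-0.37 to 0.018) and Ier2 (-0.082 to 0.12). For B12 in OSKM they were those of Egr1 (-0.15 to 0.22), Fosb (-0.37 to 0.019), Fosl2 (-0.012 to 0.16), Ier2 (-0.014 to 0.29) and Jund (-0.028 to 0.12). For B12 in MEF they were those of Egr1 (-0.15 to 0.12), Fosb (-0.56 to 0.0024), Fosl2 (-0.044 to 0.029) and Ier2 (-0.055 to 0.16). For averaged B12 they were those of Egr1 (-0.016 to 0.064), Fosl2 (-0.018 to 0.068) and Jund (-0.053 to 0.019). For the interaction they were those of Egr1 (-0.26 to 0.37), Fos (-0.19 to 0.30), Fosb (-0.11 to 0.21), Ier2 (-0.17 to 0.34) and Junb (-0.082 to 0.29).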
